A study of Rattus norvegicus with 19 samples.

Results

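A set of 223 of the 29107 transcripts measured in sorted rat mast cells was examined: transcripts found at comparable levels in mast cells of bone marrow, skin, hippocampus and hypothalamus at postnatal day 2 (PN2) and higher in hippocampal mast cells at postnatal day 7 (PN7). Levels are in CPM, a transcript's estimated count as a share of the total of its library, scaled by 1 common factor. A member had its lowest hippocampus PN7 library at least 1.5 times above its highest hippocampus PN2 library, a mean of at least 20 CPM in hippocampus at PN7 and under 500 CPM in hippocampus at PN2. Its highest mean among the 4 tissues at PN2 had to be below 5 times its lowest. The hippocampus libraries of both ages and the tissue means at PN2 therefore chose the members, and their values in these libraries are a description. Another 5480 transcripts met the limits on level and tissue but not the one on fold, and are called the other broadly expressed transcripts below.

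Mast cells are immune cells of the tissues that carry the high-affinity IgE receptor and store proteases, histamine and proteoglycans in granules. They derive from blood-forming precursors, settle in skin and mucosa early in life, and in the brain are found mostly in the meninges, along blood vessels and around the hippocampus and thalamus. A bulk profile of sorted mast cells averages over all cells of the sort, so a change between ages can stem from the cells present or from the RNA in each.

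All pups were wild type and were perfused with PBS. Immune cells were enriched on Percoll, and live single cells with high CD45, without CD11b and with surface FcεRI were sorted. Each library pools cells of 6 animals, so p-values measure the spread between pools. At PN2 there were 4 libraries of bone marrow, 5 of skin, 4 of hippocampus and 2 of hypothalamus, and at PN7 3 of hippocampus and 1 of hypothalamus. No strain is given here, and the sort itself is the only definition of the cell type. The rows carry Ensembl transcript identifiers, and none of the 223 could be paired with a gene name. Mast cell markers and markers of other cell types could therefore not be read, and no gene function is given for any member. In these bulk samples, fewer cells of a type and less RNA per cell cannot be told apart.

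Total estimated counts ran from 19935250 to 22967152 in the hippocampus libraries of PN2 and from 10329777 to 12870442 in those of PN7. Age therefore goes with depth in hippocampus. After every library was thinned at random to the smallest total, the rule found 192 transcripts, 177 of them among the 223. Hypothalamus had 5495252 and 5607810 counts at PN2 and 9792422 at PN7. Bone marrow and skin ran from 11704985 to 26394623.

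Over the members, 5 of the 15 PN2 libraries stood apart from the rest of their own groups. They were bone marrow replicate 4, skin replicates 4 and 5, hippocampus replicate 4 and hypothalamus replicate 2. On average they were closer to each other than to those groups. Across the 223 members, log2(CPM + 1) of these libraries correlated at a mean r of 0.809 between tissues (9 pairs), against 0.713 with the other libraries of their own groups (13 pairs). The remaining PN2 libraries correlated at a mean r of 0.846 between tissues (36 pairs), so the 5 were not more alike across tissues than these. Hippocampus replicate 4 correlated at 0.880 and 0.887 with skin replicates 4 and 5, and at 0.733 to 0.749 with the other 3 hippocampus libraries of PN2. Among the other broadly expressed transcripts the 5 libraries correlated at 0.820 between tissues and at 0.885 with their own groups. These values are across transcripts, which are not independent. The labels name no batch that would hold these 5, and they were picked here by their likeness over the members. No PN7 library is among them. The sums and counts that include them are also given without them where these were computed, except the calls of the hypothalamus fit.

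**Figure D1:**
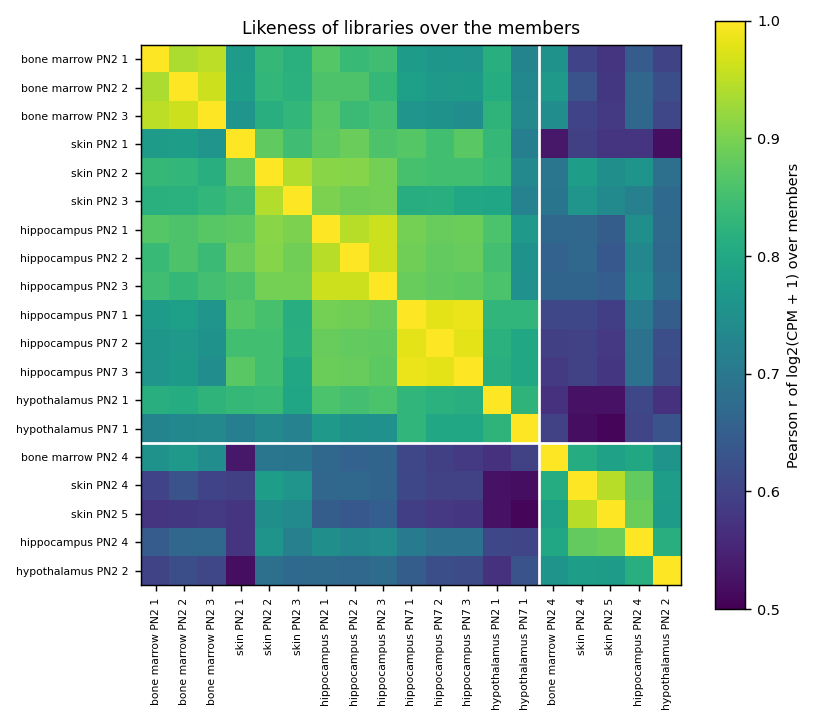
Pearson correlation of log2(CPM + 1) over the 223 members between all 19 libraries, as a colour scale from 0.5 to 1. The 5 libraries after the white line, from 4 tissues, correlate with each other at r from 0.76 to 0.947. With the other libraries of their own groups they correlate at 0.571 to 0.780. The remaining PN2 libraries correlate between tissues at 0.761 to 0.912, and the 3 hippocampus PN7 libraries with each other at 0.979 to 0.985.

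In hippocampus the members together took a much larger share of the library at PN7. They summed to 11940, 10812, 11417 and 9671 CPM in the 4 libraries of PN2 and to 24662, 25417 and 25149 CPM in the 3 of PN7. The PN7 libraries lay close together, and PN2 replicate 4, one of the 5 that stood apart, was the lowest. The mean was 10960 ± 975 CPM at PN2 (SD, n = 4) and 25076 ± 383 CPM at PN7 (SD, n = 3). Without replicate 4 the PN2 mean was 11390 CPM. The median member had a mean of 24.9 CPM at PN2 and 56.4 CPM at PN7, whereas the median of the other broadly expressed transcripts was 50.2 and 50.1 CPM.

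Most rises were modest and a small tail was large. The fold between the means of PN7 and PN2 was below 2 in 60 members, from 2 to below 3 in 112, from 3 to below 5 in 34 and at least 5 in 17. Its median was 2.20 and its range 1.63 to 27.0. Without PN2 replicate 4 the median was 2.16 and the range 1.61 to 181. In the fit over all libraries (edgeR's quasi-likelihood test, Benjamini-Hochberg adjustment over 20521 transcripts) 169 of the 223 were called higher at PN7, against 3.43% of all transcripts, and 0 lower, against 5.51%. All 223 passed the filter on low counts. Since these libraries chose the members, nothing is read from that count. Just inside the limit, the 3 members with the smallest ratio of lowest PN7 to highest PN2 library had ratios of 1.501, 1.503 and 1.503. Just outside, 3 transcripts had 1.498, 1.496 and 1.493.

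**Figure D2:**
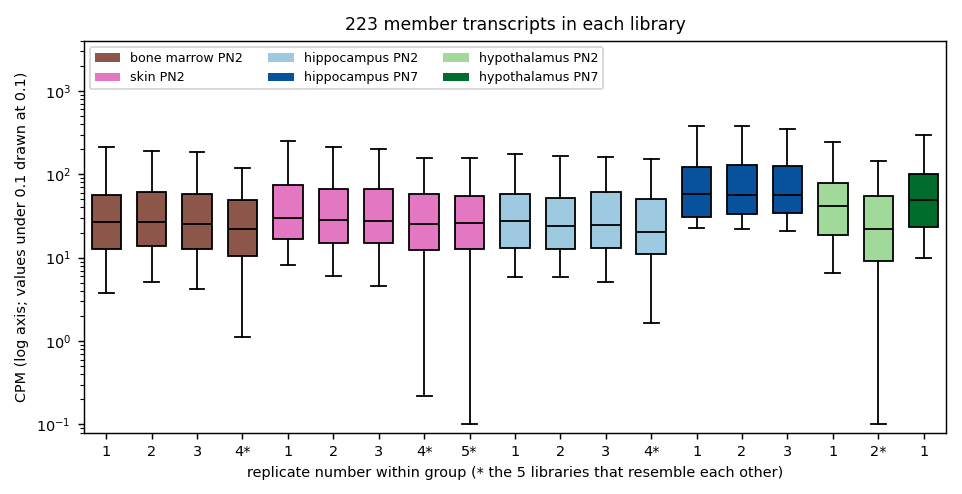
CPM of the 223 members in each library on a log axis, with boxes from the lower to the upper quartile, a line at the median and whiskers from the 5th to the 95th percentile (values under 0.1 drawn at 0.1; an asterisk marks the 5 libraries that stood apart). Medians lie at 56.3 to 58.1 CPM in the hippocampus PN7 libraries, at 49.5 CPM in the hypothalamus PN7 library and at 20.4 to 41.1 CPM in the PN2 libraries.

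The members varied little between the PN7 libraries. Their median coefficient of variation was 8.56% in hippocampus at PN7 and 14.8% at PN2, against 10.4% and 14.3% for the other broadly expressed transcripts. In skin and bone marrow the members varied more than these others, with medians of 18.9% against 12.9% and 19.9% against 15.3%. The skin and bone marrow groups each hold libraries that stood apart, and the rule favours members with a narrow spread in hippocampus.

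The largest ratio between the lowest PN7 and the highest PN2 library belonged to ENSRNOT00000003558.7. It held 31.3, 60.9 and 39.0 CPM in the hippocampus libraries of PN7 and 1.88, 4.15, 3.93 and 0 CPM in those of PN2. It was 17.6-fold higher by the means, and 13.2-fold without PN2 replicate 4, where it was at 0. Bone marrow held 3.797, 1.87, 0 and 0 CPM and skin 3.48, 3.45, 0.891, 0 and 0 CPM. Hypothalamus held 5.198 and 0 CPM at PN2 and 0.537 CPM at PN7, so that the high level was seen in the 3 hippocampus PN7 libraries and in no other.

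The next was ENSRNOT00000049540.5, with 71.4, 85.4 and 79.3 CPM in hippocampus at PN7. At PN2 it held 1.13, 0, 0.180 and 10.3 CPM there, the last value in replicate 4. Its fold was 27.0 with that library and 181 without it. In the hypothalamus PN7 library it was at 91.3 CPM, against 1.46 and 13.4 CPM in those of PN2. The rise was fitted at 3.29 ± 2.11 on the log2 scale (SE, adjusted p = 0.459 by edgeR). The other fits that kept both hypothalamus PN2 libraries gave adjusted p of 0.137 to 0.561. Without the 5 libraries the log2 fold change was 5.92. Bone marrow replicate 4 and skin replicates 4 and 5 held 9.07, 9.82 and 9.41 CPM, and the other 6 libraries of these tissues 0.171 to 1.55 CPM. The PN2 libraries thus fell into 2 levels, 5 libraries at 9.07 to 13.4 CPM and 10 at most at 1.55 CPM, and all 4 PN7 libraries of brain were far above both.

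Among the members, ENSRNOT00000010180.5 took the largest share of counts in hippocampus at PN7, with 1247, 1500 and 1603 CPM. CPM is not divided by length, so this is a share of reads and not of molecules. At PN2 the hippocampus libraries held 665, 637, 618 and 4.90 CPM. The fold was 3.01 by the means and 2.27 without replicate 4. The PN2 mean in hippocampus was 481 CPM with replicate 4 and 640 CPM without it. The latter is above the limit that the rule sets on this mean. The transcript was therefore a member only with replicate 4, one of the libraries that stood apart. The hypothalamus PN2 libraries held 950 and 0.000425 CPM and the PN7 library 1136 CPM. Skin held 952, 412 and 580 CPM in replicates 1 to 3 and 0.219 and 0.00475 CPM in replicates 4 and 5. Bone marrow held 820, 818 and 896 CPM in replicates 1 to 3 and 51.6 CPM in replicate 4. In each tissue of PN2 the libraries that stood apart were far below the others, and in 3 of the 4 tissues the transcript was nearly missing from them.

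The second by share of counts, ENSRNOT00000025858.7, had no such break in hippocampus. It held 419, 357, 404 and 407 CPM at PN2 and 739, 789 and 801 CPM at PN7, 1.96-fold higher by the means. The hypothalamus libraries held 372 and 331 CPM at PN2 and 385 CPM at PN7. There the fitted log2 fold change was -0.07 ± 0.30 (SE, adjusted p = 1 by edgeR), and a rise of the size seen in hippocampus was not observed. Bone marrow was at 751, 723 and 717 CPM in replicates 1 to 3 and 432 CPM in replicate 4, close to the hippocampus level of PN7, and skin ran from 331 to 392 CPM.

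ENSRNOT00000087723.1 followed the mean profile of the members over all 19 libraries most closely (r = 0.935 over libraries that also made the profile). It held 120, 160 and 188 CPM in hippocampus at PN7 and 26.5, 33.9, 26.0 and 18.5 CPM at PN2. In hypothalamus it held 64.8 and 10.6 CPM at PN2 and 66.0 CPM at PN7. The PN7 library of hypothalamus thus equalled one PN2 library and was 6.21-fold above the other.

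**Figure D3:**
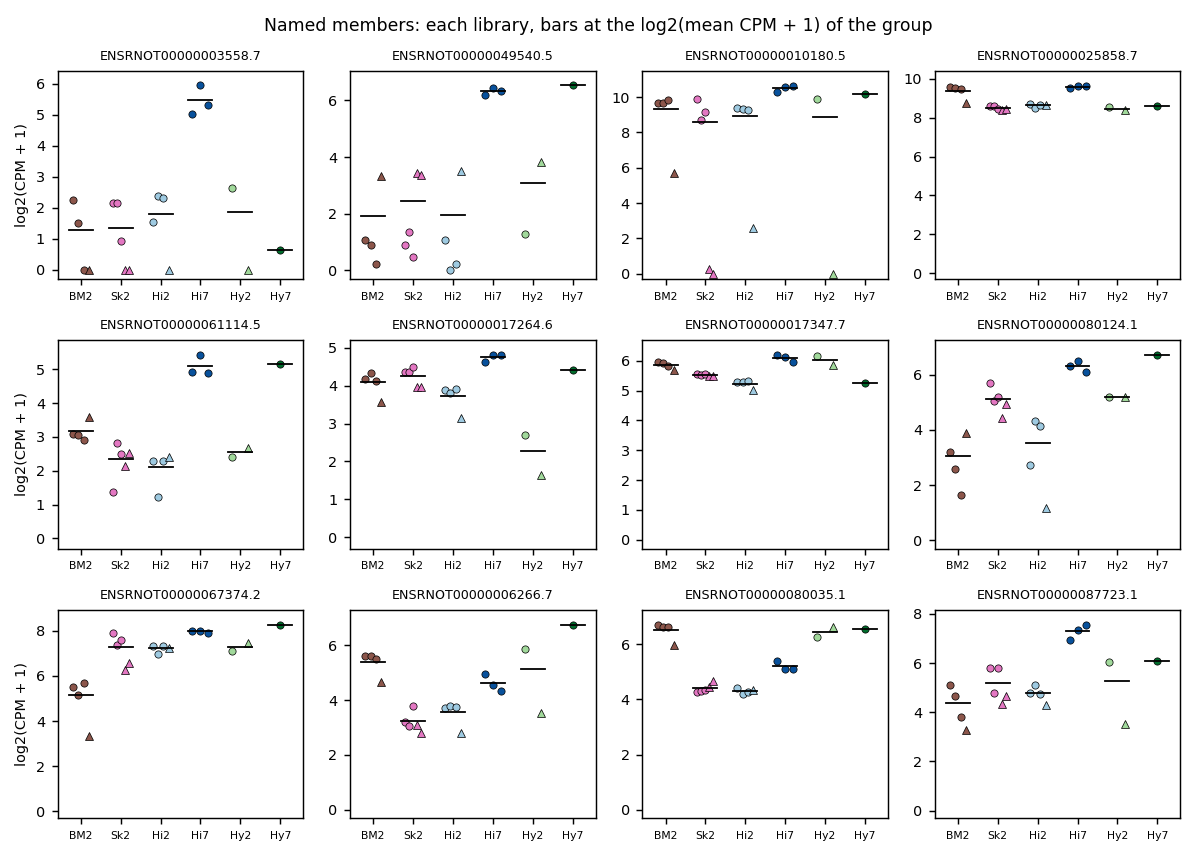
log2(CPM + 1) of the 12 named members in every library, by group (BM2 bone marrow PN2, Sk2 skin PN2, Hi2 and Hi7 hippocampus PN2 and PN7, Hy2 and Hy7 hypothalamus PN2 and PN7), with triangles for the 5 libraries that stood apart and bars at the log2 of the group mean CPM plus 1. In ENSRNOT00000010180.5 all 5 triangles lie far below the circles of their tissue, and in ENSRNOT00000049540.5 all 5 lie above them.

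A group of 19 members differed at least 2-fold from the mean of the remaining PN2 libraries of the same tissue in all 5 of the libraries that stood apart, each in the same direction in all 5 (on the CPM + 1 scale): 16 lower and 3 higher. They were picked by these values, which are a description. That is 8.52% of the members and 0.785% (43 of 5480) of the other broadly expressed transcripts. The 16 lower ones summed to 33.8 to 143 CPM in these 5 libraries and to 968 to 2352 CPM in the other 10 PN2 libraries. In hippocampus at PN7 they summed to 2929, 3230 and 3337 CPM. The 3 higher ones summed to 28.5 to 45.0 CPM in these 5 and to at most 7.36 CPM in the other PN2 libraries, and to 153 to 159 CPM in the 4 PN7 libraries of both brain regions. ENSRNOT00000003558.7 and ENSRNOT00000010180.5 are among the lower ones and ENSRNOT00000049540.5 among the higher.

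For these 19 members the size of the rise moved with PN2 replicate 4, in opposite directions for the 2 kinds. The median fold in hippocampus of the 16 lower ones was 3.82 with it and 2.86 without it, and all 16 had the larger fold with it. The 3 higher ones had folds of 7.84 to 27.0 with it and 13.9 to 181 without it. For the other 204 members the median was 2.17 and 2.15. Without that library the lowest fold by the means among the 19 was 1.84. The rule set the lowest PN7 library against the highest PN2 library, so leaving out a PN2 library cannot bring a member below the fold limit. That all 19 remained higher at PN7 is therefore fixed by the rule, and nothing is read from it.

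**Figure D4:**
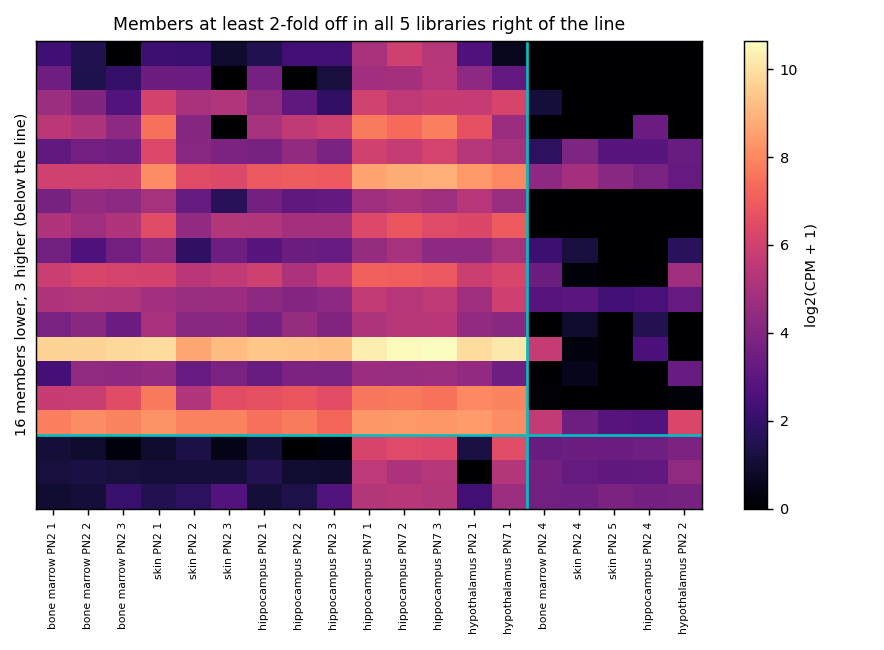
log2(CPM + 1) of the 19 members that differed at least 2-fold in all 5 libraries right of the vertical line, one row per member and one column per library. The 16 rows above the horizontal line are darker right of the vertical line, with sums of 33.8 to 143 CPM, and the 3 rows below it are brightest in the PN7 libraries.

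Members were often transcripts whose reads had been divided among several transcripts. The authors' counting assigns a share of a read where it fits more than one transcript, which leaves counts that are not whole. Of the members' values above 0, 55.3% were not whole within a tolerance of 1e-06, against 31.0% for the other broadly expressed transcripts. At least 1 value was not whole in 144 members (64.6%, against 41.5%). All 19 members described above were among the 144, and none of the 79 members with whole values throughout. The median fold in hippocampus was 2.31 for the 144 and 2.04 for the 79. A change of the transcript and a change in how its reads were divided among isoforms cannot be told apart for these members. Of the 144, 29 members, in 14 sets, held values identical in all libraries to another transcript, so the 223 hold 208 distinct profiles.

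Hypothalamus offered an age contrast that the rule did not use, apart from the PN2 mean in its limit of 5-fold. Most members were higher in the single PN7 library, but few passed the test. The members summed to 15910 and 9492 CPM in the 2 libraries of PN2 and to 19149 CPM at PN7. The PN7 library lay above both PN2 libraries in 144 of the 223 members (64.6%), against 37.8% of all transcripts tested and 41.0% of the other broadly expressed ones. In 52 members (23.3%) it was at least 1.5 times the higher PN2 library, against 20.6% of all tested and 7.35% of the other broadly expressed. It lay below both in 15 members (6.73%), against 14.9% of all tested, and in 4 members the lower PN2 library was at least 1.5 times the PN7 library, against 6.10%. Without replicate 2, which stood apart, the PN7 library was above the remaining PN2 library in 155 members, against 46.8% of all. With CPM scaled by TMM factors, which correct for a few dominant transcripts, 126 members lay above both. The share over all transcripts was not computed at that scaling, so the 126 are not read against 37.8%.

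By the fit, 5 members were called higher and 1 lower in hypothalamus at PN7 (edgeR's quasi-likelihood test, adjusted p below 0.05). These are 2.24% and 0.448% of the members, against 1.56% and 1.21% of all transcripts, so in this fit the calls were near the background. Without the 5 libraries that stood apart, hypothalamus had 1 library at each age, and the 5 had been picked over the members. Calls of that fit are therefore not read. Without the libraries numbered 4 and 5, 18 (8.07%) were called higher, against 2.46%. The unadjusted p was below 0.05 in 38 members (17.0%), against 16.7% of all. The single PN7 library is assumed to vary like the other groups. The fitted log2 fold change was above 0 in 167 of the 223 members, with a median of 0.39, and in 11630 of 20521 transcripts, with a median of 0. Its median was -0.04 in the other broadly expressed transcripts. Without the 5 libraries the fitted log2 fold change was above 0 in 146 members, with a median of 0.24, against a median of 0 over all transcripts. The share of all transcripts above 0 was not computed for that fit, so the 146 are not read. No test of the members as a set was made.

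The 2 hypothalamus libraries of PN2 gave different pictures. Replicate 2 was one of the 5 that stood apart, with 13403 transcripts detected against 16231 in replicate 1, and 13 members were at 0 in it. Against replicate 1 the PN7 library had a median ratio of 1.21 over the 220 members above 0 there. Against replicate 2 it was higher in 197 (against 58.2% of all transcripts), with a median ratio of 1.90 over the 210 above 0 there. Without either of them hypothalamus had 1 library at each age, so calls of those fits are not read. The members' median fitted log2 fold change was 0.26 without replicate 2 and 0.60 without replicate 1. In the 19 members that differed in all 5 libraries, the PN7 library was above replicate 1 in 8 of the 18 with a value above 0.

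ENSRNOT00000061114.5 had the largest called rise in hypothalamus. Not all its estimated counts were whole, so a change in how its reads were divided among isoforms cannot be told apart. It held 4.29 and 5.42 CPM at PN2 and 34.5 CPM at PN7, fitted at 2.60 ± 0.60 on the log2 scale (SE, adjusted p = 0.0301 by edgeR). In hippocampus it held 3.90, 1.35, 3.87 and 4.32 CPM at PN2 and 29.1, 42.0 and 28.6 CPM at PN7. All 4 PN7 libraries of brain thus lay between 28.6 and 42.0 CPM, and the highest PN2 library of any tissue, bone marrow replicate 4, held 10.99 CPM. Its call was lost with only brain libraries in the fit (adjusted p = 0.0798) and with limma voom (0.293), and the smallest was 0.00184, with DESeq2. With the replicate block it was 0.0619.

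ENSRNOT00000017264.6 was the second. It held 5.46 and 2.14 CPM in hypothalamus at PN2 and 20.4 CPM at PN7, fitted at 2.28 ± 0.47 on the log2 scale (SE, adjusted p = 0.0149 by edgeR). All its values are whole numbers of reads. In hippocampus it held 13.7, 13.0, 13.9 and 7.92 CPM at PN2 and 23.5, 27.1 and 27.1 CPM at PN7. At PN2 hypothalamus was the tissue with the lowest level, since skin ran from 14.6 to 21.3 CPM and bone marrow from 10.8 to 19.3 CPM. The call was lost with only brain libraries in the fit (adjusted p = 0.0657) and with limma voom (0.396), and the smallest was 0.000553, with DESeq2. Without hypothalamus replicate 2 the log2 fold change was 1.88. The 3 other called rises had log2 fold changes of 0.90 to 1.37, and in each the hypothalamus PN7 library exceeded both of PN2.

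The only called fall was ENSRNOT00000017347.7. It held 71.3 and 56.9 CPM in hypothalamus at PN2 and 37.3 CPM at PN7, fitted at -0.98 ± 0.24 on the log2 scale (SE, adjusted p = 0.0386 by edgeR). In hippocampus it held 37.8, 38.0, 39.0 and 31.4 CPM at PN2 and 72.4, 68.6 and 61.1 CPM at PN7. Hypothalamus was the higher region at PN2 and hippocampus at PN7. Its values are whole. The call was lost with only brain libraries in the fit (adjusted p = 0.104), with limma voom (0.149) and after thinning (0.0810). The smallest adjusted p was 0.00169, with DESeq2. Without hypothalamus replicate 2 the log2 fold change was -0.95.

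**Figure D5:**
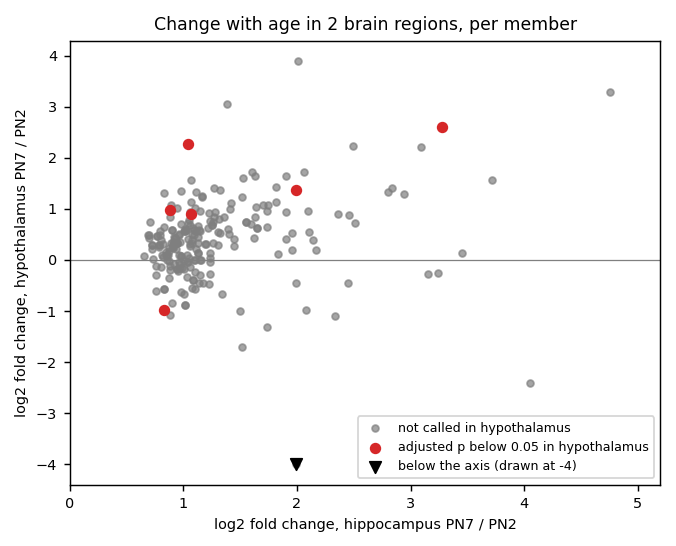
Fitted log2 fold change of PN7 over PN2 for each of the 223 members, hippocampus on the horizontal axis and hypothalamus on the vertical. All lie right of 0 because they were chosen so, 167 lie above 0 in hypothalamus, and the 6 red points are the 5 rises and 1 fall called there; 1 member, whose estimated count rounds to 0 in the hypothalamus PN7 library (fitted at -10.26), is drawn at -4 as a triangle.

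The size of the rise in hippocampus went only loosely with that in hypothalamus. Over the 223 members the fitted log2 fold changes correlated at r = 0.15 (Spearman's rho 0.32), a description across transcripts that share the same libraries. The median in hypothalamus was 0.25 for the 60 members with a hippocampus fold below 2, 0.35 for the 112 from 2 to below 3 and 0.85 for the 51 from 3 up. The PN7 library was above both of PN2 in 39, 71 and 34 of these, a like share in each class. At PN7 itself, all 3 hippocampus libraries were above the hypothalamus library in 157 members, against 24.0% of all transcripts tested, and all below it in 39, against 40.9%. These counts use the hippocampus libraries that chose the members.

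At PN2 the rule kept the 4 tissues within 5-fold of each other, and no test is read from their order. The median over members of the highest to the lowest tissue mean was 1.90. By group means, hypothalamus was highest of the 4 in 80 members, skin in 78, bone marrow in 52 and hippocampus in 13. Bone marrow was lowest in 84, hippocampus in 77, hypothalamus in 37 and skin in 25. Without the 5 libraries hypothalamus, then a single library, was highest in 116, skin in 61, bone marrow in 40 and hippocampus in 6, and hippocampus was lowest in 93, bone marrow in 88, skin in 23 and hypothalamus in 19. A rule that asks for low values in hippocampus at PN2 places that tissue low. All 4 hippocampus libraries of PN2 were below all 5 of skin in 49 members (against 8.46% of all transcripts tested) and above in 13 (against 8.35%), and below all 4 of bone marrow in 44 (against 22.0%) and above in 42 (against 14.9%). Without the 5 libraries the counts against skin were 88 and 17, beside 16.3% and 15.7% of all transcripts, and against bone marrow 71 and 59, beside 31.2% and 21.6%. Summed over the members, bone marrow had 11823 ± 1636 CPM (SD, n = 4) and skin 13874 ± 2463 CPM (SD, n = 5). Hypothalamus had 12701 ± 4538 CPM (SD, n = 2), and these ranges and that of hippocampus overlapped. The libraries that stood apart were the lowest of each group, and without them bone marrow averaged 12636 CPM and skin 15413 CPM, and the remaining hypothalamus library held 15910 CPM.

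Between skin and bone marrow, all 5 skin libraries were above all 4 of bone marrow in 61 members, against 14.2% of all transcripts tested, and below in 31, against 21.3%. These became 88 members, against 22.5%, and 48, against 31.2%, without the 5 libraries. ENSRNOT00000080124.1 had the highest ratio of the means, 4.65, with 50.8, 31.8, 35.8, 20.5 and 29.8 CPM in skin and 8.28, 5.00, 2.12 and 13.6 CPM in bone marrow. In hippocampus it went from 5.57, 19.02, 16.6 and 1.251 CPM at PN2 to 79.1, 89.6 and 68.1 CPM at PN7, and the hypothalamus libraries held 35.2 and 35.7 CPM at PN2 and 104 CPM at PN7. Hippocampus at PN2 was closer to bone marrow, and both brain regions were above skin at PN7.

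ENSRNOT00000067374.2 came next, with a ratio of 4.42. It held 239, 165, 191, 76.4 and 95.5 CPM in skin and 44.9, 34.1, 50.6 and 9.22 CPM in bone marrow, and the libraries that stood apart were the lowest of each tissue. Hippocampus rose from 159, 125, 159 and 152 CPM to 255, 256 and 241 CPM. Hypothalamus had 136 and 175 CPM at PN2 and 309 CPM at PN7 (adjusted p = 0.667 by edgeR). The other fits that kept both hypothalamus PN2 libraries gave adjusted p of 0.18 to 0.786. The fitted log2 fold change in hypothalamus was 0.75, and 1.14 without the 5 libraries.

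In the other direction, ENSRNOT00000006266.7 was 4.88-fold higher in bone marrow. It held 48.1, 47.1, 43.8 and 24.4 CPM there and 8.24, 7.23, 12.8, 7.61 and 6.00 CPM in skin. Hippocampus had 12.1, 12.6, 12.6 and 5.99 CPM at PN2 and 29.5, 22.3 and 19.1 CPM at PN7. The highest value of all was the hypothalamus PN7 library, at 107 CPM, against 57.5 and 10.5 CPM at PN2 (adjusted p = 0.235 by edgeR). The other fits that kept both hypothalamus PN2 libraries gave adjusted p of 0.147 to 0.36. The fitted log2 fold change there was 1.56, and it was 3.00 without hypothalamus replicate 1 and 0.88 without replicate 2. ENSRNOT00000080035.1 was 4.45-fold higher in bone marrow, with 104, 97.3, 98.0 and 62.1 CPM against 18.5 to 24.3 CPM in skin. It held 75.2 and 97.9 CPM in hypothalamus at PN2 and 94.1 CPM at PN7, all within the range of bone marrow. The lower end of that range was replicate 4, one of the libraries that stood apart. Without it bone marrow ran from 97.3 to 104 CPM, and only the 97.9 CPM lay within. In hippocampus at PN7 the values of this transcript ran from 33.4 to 40.8 CPM. For both transcripts the PN7 mean of hippocampus was below the PN2 mean of bone marrow, at a ratio of 0.579 and 0.398, though for the first the libraries overlapped.

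The hippocampus PN7 level was thus the highest of the 6 groups for many members and not for all. By group means it was the highest in 162 of the 223, the hypothalamus PN7 library in 48, bone marrow in 8, skin in 4 and hypothalamus at PN2 in 1. The rule favours the 162, and the shares over all transcripts were not computed, so nothing is read from these counts. All 3 hippocampus PN7 libraries were above all 15 PN2 libraries of the 4 tissues in 146 members, against 3.99% of all transcripts tested, a count that the rule favours. It was 157 without the 5 libraries, against 5.76%. Of the PN2 libraries, skin replicate 1, with the fewest counts in skin, had the highest member sum, 17489 CPM, where the other 4 ran from 11553 to 14523 CPM. It was the highest skin library in 79 members (35.4%) and in 15.5% of the other broadly expressed transcripts, and its part and that of its depth in the skin values were not tested. The median ratio to the mean of skin replicates 2 and 3 was 1.01 over the members, and the hippocampus PN7 libraries were all above skin replicate 1 in 203 of them (91.0%, against 44.9% of the other broadly expressed transcripts).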

How the data were processed

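RNA of sorted mast cells was sequenced in bulk after SMART-Seq v4 cDNA synthesis and Nextera XT library preparation, per the labels' protocols. The authors deposited estimated counts per Ensembl transcript, not normalized. kallisto and rat build Rnor_6.0 are named per the submitters' processing notes; its release and options were not given in the sources used here. The gene table at hand (47357 genes of a later assembly) lists an Ensembl identifier for 0, so no name, list of genes or sequence could be attached.

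CPM is the estimated count over the column total. For the fit, counts were rounded, filtered with filterByExpr over the 6 groups (20521 kept), scaled by TMM and fitted as 6 group means over all 19 libraries (edgeR 4.0.16, glmQLFit robust, R 4.3.3). The standard error is the absolute log2 fold change over the square root of F. Alternatives used limma 3.58.1, DESeq2 1.42.0, other filters, scalings and library sets.

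Named transcripts are the 2 largest ratios and 2 highest levels in hippocampus, the largest called changes in hypothalamus, the 2 extremes of skin against bone marrow in each direction (no overlap of libraries), and the member nearest the mean profile; at most 2 were taken for each, since identifiers carry no names, and members identical to another transcript were passed over. The members and lists were chosen with earlier results of these data known. The 5 libraries that stood apart, and the 19 members found with them, were picked after seeing the data.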

Additional observations from a re-analysis of the deposited data

Results flagged for a closer look

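Single libraries far from the rest of their group were sought in 42 sets of 4 or 5 libraries (the sum and median of the members and each named transcript, in bone marrow, skin and hippocampus at PN2), by the gap to the nearest library as a share of the range. The limit used would flag about 1 in 20 sets of independent values that were not picked, and 11 were found. The 42 sets share libraries and hold picked members, so the 11 are not read against that rate. All but the last of those below fell in replicate 4 of bone marrow or hippocampus, already picked as standing apart. The members' sum in bone marrow replicate 4 was 9385 CPM, against 12493 to 12903 CPM in the other 3. The same library held 9.07 CPM of ENSRNOT00000049540.5 (others at most 1.13), 51.6 CPM of ENSRNOT00000010180.5 (others at least 818), 432 CPM of ENSRNOT00000025858.7 (others at least 717) and 62.1 CPM of ENSRNOT00000080035.1 (others at least 97.3). Hippocampus PN2 replicate 4 held 10.3 CPM of ENSRNOT00000049540.5 (others at most 1.13), 4.90 CPM of ENSRNOT00000010180.5 (others at least 618), 7.92 CPM of ENSRNOT00000017264.6 (others at least 13.0), 31.4 CPM of ENSRNOT00000017347.7 (others at least 37.8) and 5.99 CPM of ENSRNOT00000006266.7 (others at least 12.1). Hippocampus PN2 replicate 2 held 1.35 CPM of ENSRNOT00000061114.5 (others at least 3.87).

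ENSRNOT00000017347.7 moved in opposite directions with age in the 2 brain regions: it was higher in all 3 hippocampus PN7 libraries than in all of PN2, and in hypothalamus it was at 37.3 CPM at PN7 against 56.9 and 71.3 CPM at PN2. The difference between the regions was not tested, since the hippocampus libraries chose the member.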

How the results depend on the processing

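The number of members was 53 at a fold limit of 2, 556 at a looser one and 126 with at least 50 CPM at PN7. With TMM-scaled CPM it was 174, of which 171 are among the 223. Leaving out 1 hippocampus library gave 237 to 292, and leaving out the 5 libraries that stood apart 274, 202 of them shared. The hippocampus count of 169 called members ran from 120 to 211 over all fits. In the same 2 fits 372 of 20465 and 1798 of 19514 transcripts were called higher. Nothing is read from this count, since these libraries chose the members. The hippocampus median log2 fold change ran from 1.01 to 1.12. The hypothalamus count of 5 higher (called in all transcripts: 1.56%, and likewise in parentheses below) was 12 with DESeq2 (3.74%), 0 with limma voom (0.521%), 2 with only brain libraries (0.457%), 18 without the libraries numbered 4 and 5 (2.46%), 29 without the 5 that stood apart (4.19%) and 2 to 31 without 1 PN2 library (1.64% and 9.37%); limma voom had 28 members at an unadjusted p below 0.05. Its median log2 fold change was 0.24 to 0.60 over all fits. Replicate numbers did not pair the hippocampus samples: same-numbered deviations correlated at -0.13 to 0.05, and 0 of the 3 PN7 libraries correlated best with their own number. With the replicate block 166 members were called higher in hippocampus (715 of all 20521 transcripts). In hypothalamus 5 were called higher (0.931%) and 2 lower (0.955%). TMM scaling put the bone marrow median at 25.1 CPM, the hippocampus PN7 sum at 25706 CPM and that of the hypothalamus PN7 library at 17027 CPM. Without 1 library at a time, medians at PN2 were 26.4 to 27.1 CPM in bone marrow, 26.0 to 27.9 in skin, 23.2 to 25.3 in hippocampus and 22.2 to 41.1 in hypothalamus. Of the 12 named transcripts, 4 uncalled ones had hypothalamus log2 fold changes that crossed 0. Without replicate 1 or 2, ENSRNOT00000003558.7 ran from -3.37 to 6.07, ENSRNOT00000025858.7 from -0.13 to 0.031 and ENSRNOT00000080035.1 from -0.40 to 0.31. Without the 5 libraries the second was 0.011, the third 0.29 and ENSRNOT00000087723.1 -0.012. The causes were not tested. The single hypothalamus PN7 library could not be left out. Thinning left the hypothalamus count at 5 (1.70% of all transcripts) and the median at 0.37.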
